A study of Mus musculus with 35 samples.

Results

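The 10 genes described here encode the core of the repair machinery for small methylated bases: the base excision repair (BER) factors Mpg, Apex1, Polb, Xrcc1, Lig3, Parp1 and Parp2, and the direct reversal enzymes Mgmt, Alkbh2 and Alkbh3. They were chosen by name, as probe sets annotated with one of these symbols alone, and all 10 were found among the 18194 genes with such a probe set. Where a gene had several probe sets, the one of highest mean signal stood for it, and all 10 were among the 14135 genes that passed the limit on low values (log2 4.40 in at least 1 group). Transcripts were measured on Affymetrix expression arrays in primary mouse embryonic fibroblasts (MEFs) of strain C57BL6/J, from which head and fetal liver had been removed before culture. At 24 h after plating, the medium was exchanged for fresh medium (control) or fresh medium with methyl methanesulfonate (MMS, an agent that methylates DNA bases) at 40 µg/mL. Controls were harvested at 0, 1, 8, 24 and 72 h, and cells in MMS at the last 4 of these times. Each group had 4 arrays apart from MMS at 72 h, which had 3 because its replicate 4 was not analysed here. The sample labels give embryos of day 15.5 and 2 passages, whereas the study's methods give a younger embryo and more passages. No genotype, allele or agent other than MMS distinguished the groups, and the fresh medium was common to both arms. The labels call the replicates biological without saying that they came from separate embryos, so p-values measure the spread between these arrays.

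MMS leaves mainly N7-methylguanine and N3-methyladenine in DNA. In BER, the glycosylase MPG (also called AAG) cuts out the methylated base, APEX1 nicks the strand at the empty site, DNA polymerase beta (POLB) fills the gap, and DNA ligase 3 (LIG3), held by the scaffold XRCC1, seals the nick. PARP1 and PARP2 bind the nicked intermediate and mark it with poly(ADP-ribose), which recruits XRCC1. Direct reversal needs no cut: MGMT moves the methyl group of O6-methylguanine onto itself, and ALKBH2 and ALKBH3 oxidize the methyl group of N1-methyladenine and N3-methylcytosine.

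Values are log2 signals, so a difference of 1 is a doubling, and differences were tested by a limma model fitted to all 35 arrays, with p-values adjusted over the 14135 genes. Levels were not compared between genes, since probe sets differ in how brightly they hybridise. The mean of 12 fibroblast markers lay at 10.34 or above on every array. It was lower with MMS than in control cells at 8 h (10.76 to 10.84 against 11.42 to 11.49, 10 of 12 markers called lower), at 24 h (10.34 to 10.80 against 11.53 to 11.65, 11 of 12 lower and 1 higher) and at 72 h (11.79 to 11.96 against 12.35 to 12.50, 5 of 12 lower). The part of this shift in the results was not tested. The mean of 28 intestinal markers was 5.25 to 10.79 on 6 arrays (replicate 3 of control at 0 and 1 h and of MMS at 1, 24 and 72 h, and control 24 h replicate 4), and MMS 24 h replicate 3 stood at 8.80. The mean of 16 macrophage markers was 7.84 to 7.99 in control and 7.21 to 7.42 in MMS-treated cells at 8 h, against 4.35 to 5.86 in the other groups, and 13 to 15 of the 16 were above the limit at 8 h. At 24 h it was 4.75 to 5.27 with MMS and 4.35 to 4.44 in control cells. Of 14 tested markers 3 were called higher and 0 lower, and the median log2 difference over the 14 was -0.09. The part of these markers in the 24 h results was not tested. In such bulk samples, fewer cells of a type and less RNA per cell cannot be told apart.

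A RefSeq promoter window (GRCm38.p6, 250 bases before to 50 after a gene's start) was matched for 9 of the 10 members, Polb being the one named only. Windows are shown for Mpg and Alkbh2, the members called higher after MMS at both 8 and 24 h. They are also shown for Parp1 and Parp2, the members called lower at both 8 and 72 h. The call of Parp1 at 8 h was at the threshold and did not hold in most alternatives, as given below. Capitals mark a GC box (GGGCGG), an E-box (CACGTG) or a CCAAT box (CCAAT), each searched on both strands. The Mpg window is chr11:32226255-32226554 on the plus strand, that of Alkbh2 is chr5:114128169-114128468 on the minus strand, that of Parp1 is chr1:180568641-180568940 on the plus strand and that of Parp2 is chr14:50807666-50807965 on the plus strand.
Mpg: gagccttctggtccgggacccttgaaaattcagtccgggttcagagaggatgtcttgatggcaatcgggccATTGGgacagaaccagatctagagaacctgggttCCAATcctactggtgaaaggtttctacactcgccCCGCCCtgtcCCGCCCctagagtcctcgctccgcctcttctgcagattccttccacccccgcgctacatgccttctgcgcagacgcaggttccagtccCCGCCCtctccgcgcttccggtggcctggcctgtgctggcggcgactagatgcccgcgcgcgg
Alkbh2: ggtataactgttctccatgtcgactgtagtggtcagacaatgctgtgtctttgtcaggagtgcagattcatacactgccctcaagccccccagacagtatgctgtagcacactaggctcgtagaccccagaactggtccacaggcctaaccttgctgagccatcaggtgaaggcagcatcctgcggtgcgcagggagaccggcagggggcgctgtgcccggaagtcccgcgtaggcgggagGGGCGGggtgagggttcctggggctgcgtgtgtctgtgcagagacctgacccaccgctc
Parp1: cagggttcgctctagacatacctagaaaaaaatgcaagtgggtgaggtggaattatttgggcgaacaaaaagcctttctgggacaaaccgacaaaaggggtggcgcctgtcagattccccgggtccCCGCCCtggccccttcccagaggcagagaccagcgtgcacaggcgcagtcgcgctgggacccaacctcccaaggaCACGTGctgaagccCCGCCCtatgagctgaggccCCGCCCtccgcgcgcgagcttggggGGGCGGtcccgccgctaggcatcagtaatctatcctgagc
Parp2: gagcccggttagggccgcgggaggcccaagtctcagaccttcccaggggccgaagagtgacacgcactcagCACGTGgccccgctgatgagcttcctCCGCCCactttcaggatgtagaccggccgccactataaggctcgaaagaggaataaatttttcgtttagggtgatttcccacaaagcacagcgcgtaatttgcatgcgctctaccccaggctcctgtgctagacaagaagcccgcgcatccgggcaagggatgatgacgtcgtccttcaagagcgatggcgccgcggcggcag
The GC box, the binding motif of SP1 family factors, occurred in the windows of 7 of the 9 members (Mpg, Apex1, Lig3, Parp1, Parp2, Mgmt and Alkbh2), and in 35.7% of the 32851 mouse windows of the same length. An E-box of the letters CACGTG occurred in 4 members (Apex1, Lig3, Parp1 and Parp2), against 7.15% of all windows, and a CCAAT box in 3 (Mpg, Apex1 and Xrcc1), against 37.4%. The core of the antioxidant response element (TGACNNNGC) was found in 1 of 2 windows of Mgmt, where it overlaps a GC box, and in 12.4% of all windows. None of the member windows held the full cyclic AMP response element (TGACGTCA, 1.79% of all windows) or an E2F site (TTTCGCGC, 0.323%, or TTTGGCGC, 0.514%). These matches describe letters in a window and were not tested for binding.

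After MMS, members were called in both directions at 8 and 72 h and in 1 direction at 24 h. At 1 h none passed the test in either direction, nor an unadjusted p of 0.05, and 0.361% of all genes tested were called higher and 0.0283% lower. At 8 h, 2 members rose (Mpg and Alkbh2) where 28.7% of all genes rose, and 3 fell (Lig3, Parp1 and Parp2) where 25% of all genes fell. At 24 h, 6 of the 10 rose (Mpg, Apex1, Polb, Xrcc1, Alkbh2 and Alkbh3), against 25% of all genes, and 0 fell, against 19.4%. At 72 h, 1 rose (Polb), against 10.1%, and 2 fell (Parp1 and Parp2), against 10.4%. By separation of the arrays, 2 members lay wholly above the controls and 1 below at 8 h (25% and 22.6% of all genes), 4 above and 0 below at 24 h (23.8% and 18.9%), and 2 above and 2 below at 72 h (14.1% and 15.3%). The shares called at 8 h lay near those of all genes, and the share that rose at 24 h was above. The median log2 difference over the 10 members was -0.01 at 1 h, 0.01 at 8 h, 0.32 at 24 h and 0.03 at 72 h, beside medians of 0.00, 0.06, 0.01 and -0.01 over all genes. No member reached 2-fold at any time, while 1180 genes at 8 h and 738 at 24 h were called at 2-fold or more.

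**Figure D1:**
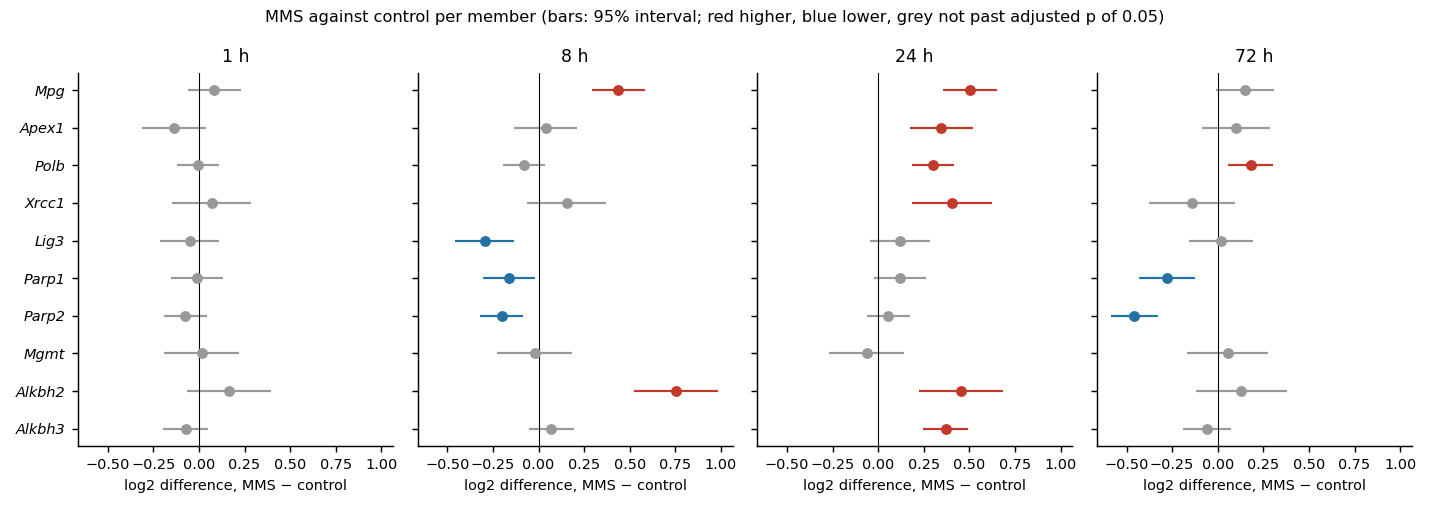
Log2 difference between MMS-treated and control cells for each member at 1, 8, 24 and 72 h, as points with 95% intervals from limma, in red where the gene was called higher, in blue where it was called lower and in grey otherwise. At 24 h 6 points are red and none is blue, Alkbh2 at 8 h (0.75) is the largest difference, and Mgmt is grey at every time.

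Mpg, the glycosylase that starts repair of N3-methyladenine, was higher after MMS at 8 and 24 h. Its log2 signals at 8 h were 8.73, 8.53, 8.62 and 8.64 with MMS and 8.18, 8.16, 8.22 and 8.21 in control cells. At 24 h they were 9.01, 8.97, 8.73 and 8.93 with MMS and 8.59, 8.32, 8.36 and 8.36 in control cells. All 4 MMS arrays lay above all 4 control arrays at both times. The log2 difference was 0.44 ± 0.07 (standard error, 1.35-fold, limma adjusted p = 5.64e-06) at 8 h and 0.50 ± 0.07 (1.42-fold, adjusted p = 8.64e-07) at 24 h. At 72 h the groups overlapped, with 8.78, 8.65 and 8.57 for MMS and 8.49, 8.47, 8.61 and 8.50 for control cells, and the difference of 0.15 (95% interval -0.01 to 0.31) did not pass the test. All 3 Mpg probe sets were called higher at 8 h (0.44, 0.56 and 0.52). At 24 h they disagreed: 2 were called higher (0.50 and 0.46) and the second brightest had -0.15 ± 0.09 (adjusted p = 0.19 over the 25798 probe sets tested). The rise of Mpg at 24 h therefore holds for 2 of its 3 probe sets.

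Apex1 and Polb, which act next on the empty site, rose at 24 h and were not called at 8 h. Apex1, the endonuclease that also serves as a redox factor, had 11.08, 10.79, 10.90 and 10.89 with MMS at 24 h and 10.41, 10.52, 10.70 and 10.64 in control cells, without overlap. The log2 difference was 0.35 ± 0.08 (1.27-fold, adjusted p = 0.0012). At 8 h its signals were 10.98, 10.79, 10.84 and 10.95 with MMS and 10.83, 10.80, 10.74 and 11.04 in control cells, which overlap, for a difference of 0.04 (95% interval -0.13 to 0.21). The other 2 probe sets of Apex1 were called higher both at 8 h (0.24 and 0.26) and at 24 h (0.60 and 0.37), so the time at which Apex1 first rose depends on the probe set. The probe set used is of the x type, which shares probes with other transcripts.

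Polb, the gap-filling polymerase of short-patch BER, had 9.67, 9.58, 9.44 and 9.53 with MMS at 24 h and 9.25, 9.19, 9.28 and 9.31 in control cells, again without overlap. Its difference was 0.30 ± 0.06 (1.23-fold, adjusted p = 5.29e-05). At 72 h the 3 MMS arrays, at 9.41, 9.39 and 9.32, still lay above the control arrays, at 9.21, 9.23, 9.20 and 9.14. That difference of 0.18 ± 0.06 (adjusted p = 0.032) was lost when any of 4 single arrays was left out (control 72 h replicate 3 or 4, MMS 72 h replicate 1 or 2, adjusted p of 0.056 to 0.10) and under several other settings. Of the 4 Polb probe sets, the 2 brightest were called higher at 24 h (0.30 and 0.56) and at 72 h (0.18 and 0.37), whereas the 2 dimmest were called lower at 8 h (-0.32 and -0.80). At 8 h the brightest had -0.08 (95% interval -0.20 to 0.03).

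Of the nick-sealing pair, Xrcc1 rose at 24 h and Lig3 fell at 8 h. Xrcc1, the scaffold that brings the ligase to the nick, had 7.79, 7.82, 7.26 and 7.68 with MMS at 24 h and 7.40, 7.25, 6.96 and 7.32 in control cells. MMS replicate 3, one of the arrays with intestinal transcripts, was lowest of its group and lay within the control range, and control replicate 3 was lowest of its own. The difference was 0.40 ± 0.11 (1.32-fold, adjusted p = 0.0023). Without the 6 arrays with an excess of intestinal markers it was 0.56 (adjusted p = 0.00012). At 8 h Xrcc1 had a difference of 0.15 (95% interval -0.06 to 0.37) and at 72 h of -0.14 (95% interval -0.38 to 0.09). Leaving out those 6 arrays kept all 6 calls at 24 h.

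Lig3, the ligase of short-patch and mitochondrial repair, had 7.42, 7.20, 7.14 and 7.48 with MMS at 8 h and 7.61, 7.37, 7.76 and 7.69 in control cells. The groups overlapped through control replicate 2. The difference was -0.30 ± 0.08 (1.23-fold lower, adjusted p = 0.0022), and of 4 Lig3 probe sets above the limit 2 were called lower at 8 h, with the 4 values between -0.30 and -0.03. At 24 and 72 h the differences were 0.12 (95% interval -0.04 to 0.28) and 0.02 (95% interval -0.16 to 0.19). Macrophage markers also differed between the arms at 8 h, as given above, and their part in the 8 h results was not tested. The ratio of 3′ to 5′ control probe sets is a measure of RNA integrity. For Actb at 8 h it was 0.37 to 0.49 (log2) with MMS and 0.20 to 0.24 in control cells. For Gapdh it was 0.04 to 0.14 and 0.01 to 0.08, which overlap. At 24 h Actb had 0.26 to 0.33 with MMS and 0.18 to 0.27 in control cells, and Gapdh -0.24 to -0.14 and -0.13 to -0.06. The part of these ratios in the 8 and 24 h results was not tested.

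Parp1 and Parp2, the sensors of nicked DNA, were lower after MMS at 72 h. Parp2 had 8.04, 7.87 and 7.79 with MMS at 72 h and 8.42, 8.33, 8.24 and 8.44 in control cells. At 8 h it had 8.04, 7.94, 7.97 and 8.00 with MMS and 8.17, 8.26, 8.14 and 8.20 in control cells. All MMS arrays lay below all control arrays at both times. On the log2 scale, Parp2 fell by 0.46 ± 0.06 at 72 h (1.37-fold, adjusted p = 1.46e-06), and by 0.20 ± 0.06 at 8 h (1.15-fold, adjusted p = 0.0037). At 24 h its difference was 0.05 (95% interval -0.06 to 0.17).

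Parp1, which makes most of the poly(ADP-ribose) of damaged cells, had 8.85, 8.75 and 8.91 with MMS at 72 h and 9.13, 9.16, 9.12 and 9.06 in control cells, without overlap. The log2 signal fell by 0.28 ± 0.08 (1.21-fold, adjusted p = 0.0070). Of its 4 probe sets, 3 were called lower at 72 h, and all 4 had values between -0.30 and -0.20. Leaving out MMS 72 h replicate 2 gave -0.23 (adjusted p = 0.057). At 8 h, Parp1 had 8.46, 8.06, 8.19 and 8.28 with MMS and 8.46, 8.22, 8.57 and 8.39 in control cells, which overlap. The difference of -0.16 ± 0.07 (adjusted p = 0.049) was at the threshold and was lost in 14 of 22 alternatives and turned in 1. The faintest of the 4 Parp1 probe sets had 0.23 at that time.

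The direct reversal enzymes differed among themselves. Alkbh2, the nuclear demethylase of double-stranded DNA, showed the largest MMS difference of the 10 genes. Its signals at 8 h were 8.67, 8.13, 8.57 and 8.29 with MMS and 7.55, 7.66, 7.73 and 7.70 in control cells, without overlap. At 24 h they were 7.08, 7.16, 6.79 and 7.16 with MMS and 6.68, 6.84, 6.48 and 6.38 in control cells, where MMS replicate 3 lay within the control range. Alkbh2 rose by 0.75 ± 0.11 (1.69-fold, adjusted p = 1.48e-06) at 8 h and by 0.45 ± 0.11 (1.37-fold, adjusted p = 0.0014) at 24 h. Of all genes tested, 14.6% had a difference at least as large at 8 h. At 72 h the difference was 0.13 (95% interval -0.12 to 0.38).

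Alkbh3, which prefers single-stranded DNA and RNA, rose at 24 h, with 9.09, 8.97, 9.04 and 9.003 for MMS and 8.63, 8.71, 8.67 and 8.62 for control cells. These groups were well separated. The difference was 0.37 ± 0.06 (1.29-fold, adjusted p = 6.17e-06), and its second probe set was also called higher (0.28). At 8 h and 72 h the differences were 0.07 (95% interval -0.05 to 0.19) and -0.06 (95% interval -0.19 to 0.07).

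Mgmt, the methyltransferase that is used up by each O6-methylguanine it repairs, passed the test at no time. Its signals at 8 h were 8.20, 8.12, 8.19 and 7.91 with MMS and 8.12, 8.02, 8.10 and 8.27 in control cells. At 24 h they were 7.98, 7.98, 7.62 and 7.89 with MMS and 7.86, 7.98, 7.98 and 7.91 in control cells. The groups overlapped at every time. The log2 differences were 0.01, -0.02, -0.06 and 0.05 at 1, 8, 24 and 72 h, with 95% intervals that reached from -0.27 to 0.28 over the 4 times.

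**Figure D2:**
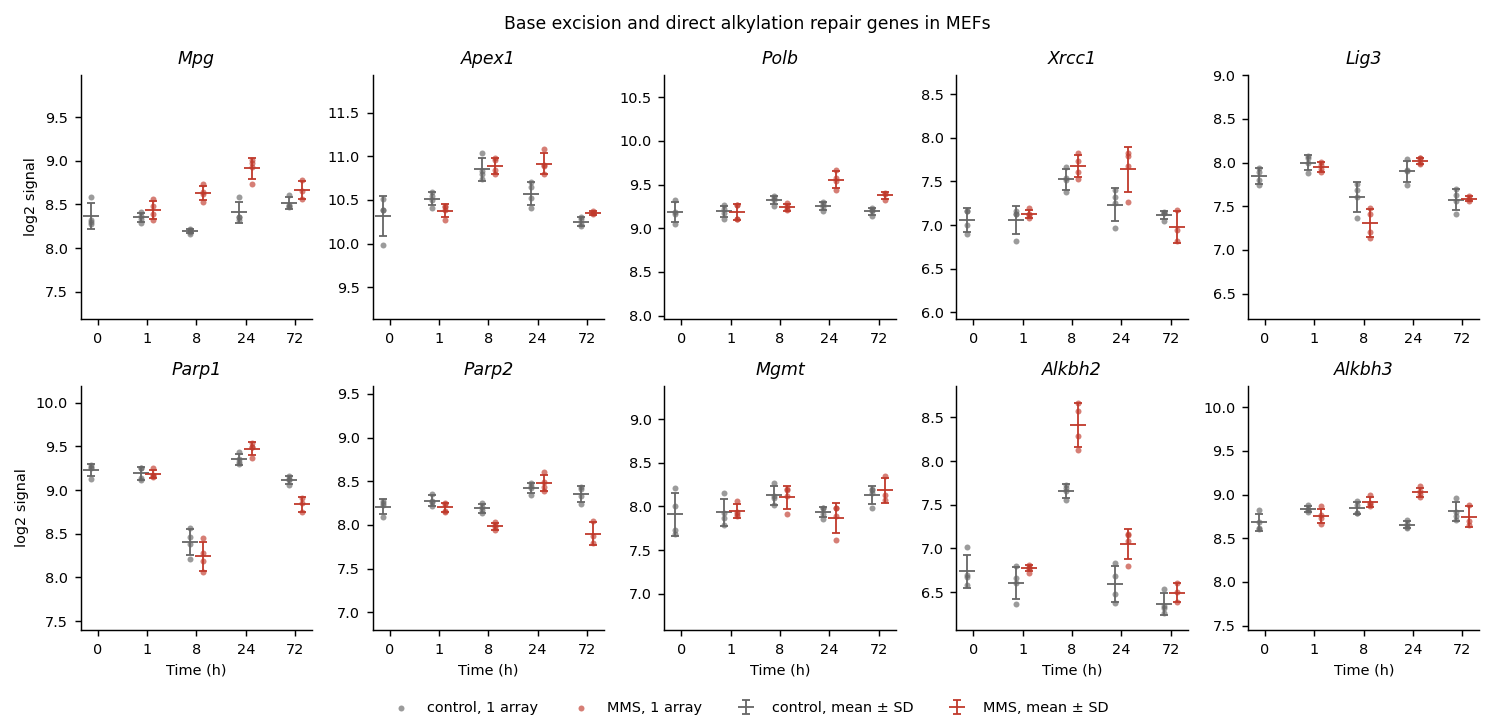
Log2 signal of each member on each array at 0, 1, 8, 24 and 72 h, with control points in grey, MMS points in red and bars for mean ± SD (4 arrays per group, 3 for MMS at 72 h). Every panel spans the same log2 range around its own centre. MMS arrays of Mpg lie above control arrays at 8 and 24 h, those of Parp2 lie below at 8 and 72 h, and Alkbh2 is highest at 8 h in both arms.

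The MMS effects at neighbouring times were also compared by a test of the difference between them, which Mgmt passed in no step. From 1 to 8 h the effect rose for Mpg (0.35 ± 0.10, adjusted p = 0.0056) and Alkbh2 (0.59 ± 0.16, adjusted p = 0.0036), and fell for 0, where 21.3% of all genes rose and 20% fell. From 8 to 24 h it rose for 6 genes (Apex1, Polb, Lig3, Parp1, Parp2 and Alkbh3) by 0.26 to 0.42, and fell for 0, where 23.3% of all genes rose and 22.2% fell. Of the 4 Parp1 probe sets, 2 were called higher and 1 lower for this step (-0.37 to 0.53). Of the 4 Lig3 probe sets, 2 were called higher (0.02 to 0.50). From 24 to 72 h the effect fell for 5 genes (Mpg, Xrcc1, Parp1, Parp2 and Alkbh3), by 0.36 for Mpg to 0.54 for Xrcc1, and rose for 0, where 16.5% of all genes fell and 12.4% rose. For this step 1 of 3 Mpg probe sets was called lower (-0.40 to 0.29), and 2 of 4 Parp1 probe sets were (-0.62 to -0.06). With each array centred on its median, which moved the median of all genes from -0.03 to -0.15 for the step from 8 to 24 h, Polb and Lig3 kept their calls for that step, Apex1, Parp1, Parp2 and Alkbh3 lost theirs, and Alkbh2 was called with a fall of 0.42. For the step from 24 to 72 h, Xrcc1, Parp2 and Alkbh3 kept theirs and Mpg and Parp1 did not. Neighbouring steps share the arrays of the middle time.

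Control cells also changed, most at 8 h. The question here was how far each transcript moved in fresh medium without MMS. Against 0 h, no member was called at 1 h, where 7.22% of all genes were higher and 4.38% lower. At 8 h, 5 members were higher, where 35.8% of all genes were, and 3 lower, where 23.6% were. Arrays of 3 members lay wholly above and of 2 wholly below those at 0 h, against 26.9% and 19.8% of all genes. Alkbh2 had 7.55 to 7.73 in control cells at 8 h and 6.58 to 7.01 at 0 h, without overlap, a rise of 0.92 ± 0.11 (1.89-fold, adjusted p = 4.59e-08). This comparison and that of MMS at 8 h share the control 8 h arrays. Apex1 rose by 0.53 ± 0.08 (adjusted p = 3.24e-06) and Xrcc1 by 0.46 ± 0.11 (adjusted p = 0.00042), both with all 8 h arrays above all 0 h arrays. Control 0 h replicate 3 is one of the 6 arrays with an excess of intestinal markers. Without those 6 arrays Alkbh2 rose by 0.87, Apex1 by 0.42 and Xrcc1 by 0.41, all still called. Polb (0.14) and Alkbh3 (0.16) were called higher and Mpg (-0.17) and Lig3 (-0.24) lower, but each of these calls was lost when single arrays were left out. The 8 h arrays of both arms carried the macrophage transcripts described above and stood apart on the first principal component (44.5% of the variance), at 47.3 to 83.3 against at most 3.85 for all others. Their part in these changes was not tested.

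No direction can be given for Parp1 in control cells at 8 h. Its brightest probe set had 8.46, 8.22, 8.57 and 8.39 at 8 h and 9.25, 9.28, 9.13 and 9.27 at 0 h, a difference of -0.83 ± 0.07. The next probe set had -0.01 ± 0.07, and the other 2 were called higher, at 0.34 and 0.36. Lig3 probe sets ranged from -1.27 to 0.04 in the same comparison, and the 2 of Alkbh3 were called in opposite directions (0.16 and -0.48). Probe sets of a gene cover different stretches of its transcripts, and which stretch each one covers was not analysed here.

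At later times few members differed from 0 h in control cells. At 24 h, Parp2 was higher (0.21 ± 0.06, adjusted p = 0.014), where 9.12% of all genes were higher, and 0 members were lower, where 2.06% were. At 72 h, Parp2 was higher (0.15, adjusted p = 0.046, lost in 12 of 20 alternatives), where 21.8% of all genes were. Lig3 (-0.27 ± 0.08, adjusted p = 0.0074) and Alkbh2 (-0.38 ± 0.11, adjusted p = 0.0092) were lower at 72 h, where 16.3% of all genes were. For Lig3 this was the only one of 4 probe sets called, the others having 0.05, -0.22 and -0.21 (adjusted p of 0.20 to 0.61). All 4 arrays of Lig3 and of Alkbh2 at 72 h lay below their 0 h arrays, as for 13.1% of all genes, and no member lay wholly above, as 19.7% did. The call for Alkbh2 was lost without control 0 h replicate 4 (-0.28, adjusted p = 0.054). Mgmt had 0.22 at both 8 and 72 h, not past the test (adjusted p = 0.062 and 0.081), and without control 0 h replicate 4 it was called higher at both times.

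**Figure D3:**
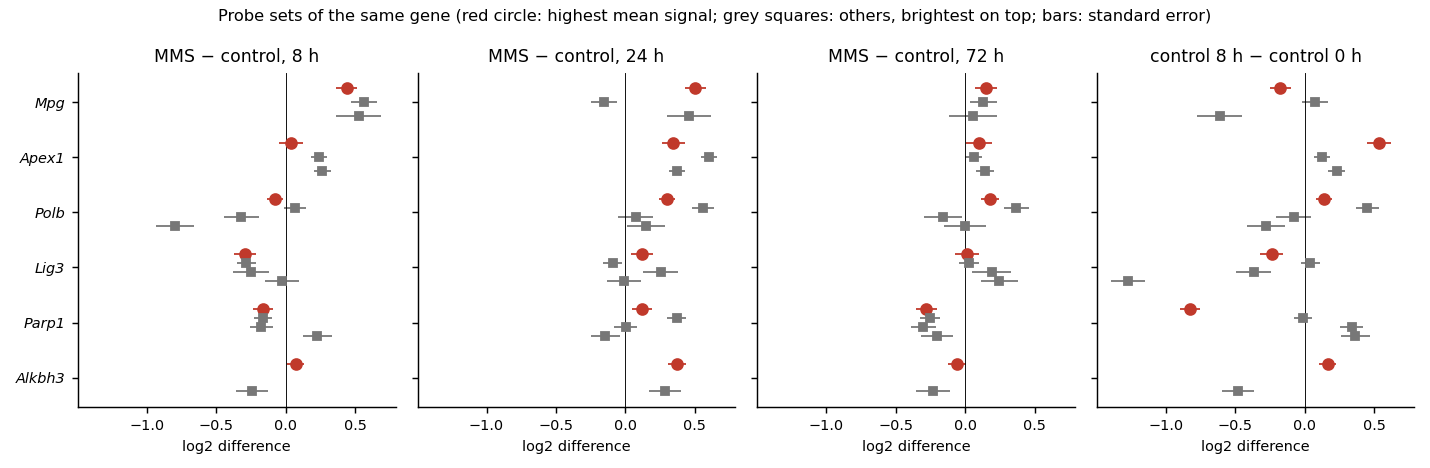
Log2 differences of each probe set above the limit for the 6 members with several, with bars for the standard error: MMS against control at 8, 24 and 72 h, and control at 8 h against control at 0 h. The red circle is the probe set with the highest mean, grey squares are the others. The 4 Parp1 probe sets lie together at 72 h (-0.30 to -0.20) and spread from -0.83 to 0.36 in control cells at 8 h.

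Over the 9 group means, Apex1 and Xrcc1 moved most alike (Pearson's r of 0.94), followed by Lig3 and Parp1 (0.86) and by Xrcc1 and Alkbh2 (0.83). These values describe 9 points that include the 8 h groups of both arms, which stand apart, and no test was made. They use the brightest probe set of each gene, and the probe sets of Parp1 and of Lig3 disagreed in control cells at 8 h, as given above.

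The wider alkylation repair network was described with 49 further genes in 5 lists, all above the limit on low values. None was called at 1 h. At 8 h 17 rose and 16 fell, at 24 h 24 rose and 10 fell, and at 72 h 3 rose and 18 fell, with median differences of 0.10, 0.26 and -0.20. The shares of all genes that rose and fell at these times are given above.

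The genes of long-patch repair synthesis, which BER shares with replication, numbered 14: 3 rose and 8 fell at 8 h, 10 rose and 1 fell at 24 h, and 12 fell at 72 h. Their median differences were -0.29, 0.33 and -0.59. At 8 h, Fen1, the flap endonuclease, rose by 0.59 (1.51-fold), Rfc3, a clamp loader subunit, by 0.56 and Pcna, the sliding clamp, by 0.29, while Pole2, a subunit of polymerase epsilon, fell by 0.93 (1.91-fold). Rfc1 and Rfc2, also of the clamp loader, each fell by 0.45. At 24 h Rfc3 (0.88), Pold1 (0.72), the catalytic subunit of polymerase delta, and Rfc5 (0.60) were higher and Pold2 (-0.63) was lower. At 72 h Pole (-1.06, 2.08-fold lower), Lig1 (-0.90), the replicative ligase, and Rfc5 (-0.84) were lower. All of these had adjusted p of at most 3.95e-05 and no overlap between arms.

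Among 8 other DNA glycosylases, 3 rose and 1 fell at 8 h, 5 rose and 1 fell at 24 h, and 2 fell at 72 h. Mbd4, which removes thymine and uracil opposite guanine, rose by 0.81 at 8 h (1.75-fold, adjusted p = 2.41e-06) and by 0.97 at 24 h (1.96-fold, adjusted p = 1.54e-07). Neil1, a glycosylase of oxidized bases, rose by 0.74 at 24 h and Nthl1, another such, by 0.43, while Ogg1, which removes 8-oxoguanine, rose by 0.53 at 8 h. Ung, the uracil glycosylase, was higher at 8 h (0.48) and lower at 24 h (-0.68) and 72 h (-0.84). Of 7 genes of end processing and break signalling, 2 rose and 2 fell at 8 h, 4 rose at 24 h and 1 rose at 72 h. Aplf, which binds poly(ADP-ribose) at breaks, rose by 0.54 and 0.66 at 8 and 24 h, and Aptx, which cleans blocked 5′ ends, by 0.39 at 8 h. Parp3 was lower at 8 h (-0.24) and higher at 72 h (0.42), where Parp1 and Parp2 were lower.

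Of 10 genes of poly(ADP-ribose) turnover and NAD salvage, 3 rose and 2 fell at 8 h, 3 rose and 4 fell at 24 h, and 1 rose and 3 fell at 72 h. Nmnat1, the nuclear enzyme that makes the NAD used by PARP1, was higher at 8 h (1.14, 2.20-fold, adjusted p = 1.16e-13), 24 h (0.48) and 72 h (0.38). Nmrk1, a nicotinamide riboside kinase, rose by 0.75 at 8 h, and Nampt, the first enzyme of NAD salvage, was higher at 8 h (0.60) and lower at 72 h (-0.41). Oard1, which removes terminal ADP-ribose, rose by 0.79 and Parg, the poly(ADP-ribose) hydrolase, by 0.28 at 24 h. Macrod2, another ADP-ribose hydrolase, was lower at 8 h (-0.81), and at 24 h its mean with MMS, 4.08, lay below the limit on low values, so no size is given there. Of 10 other ALKBH and partner genes, 6 rose and 3 fell at 8 h, 2 rose and 4 fell at 24 h, and 1 rose and 1 fell at 72 h. Alkbh4 rose by 1.01 at 8 h (2.01-fold, adjusted p = 1.13e-10), Alkbh6 was higher at 8, 24 and 72 h (0.38, 0.71 and 0.38), and Alkbh5, an RNA demethylase, was higher at 8 h (0.53) and lower at 24 h (-0.54) and 72 h (-0.36). Fto, also an RNA demethylase, was lower at 8 h (-0.45) and 24 h (-0.34), and Ascc3, the helicase that works with ALKBH3, was lower at 24 h (-0.58).

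**Figure D4:**
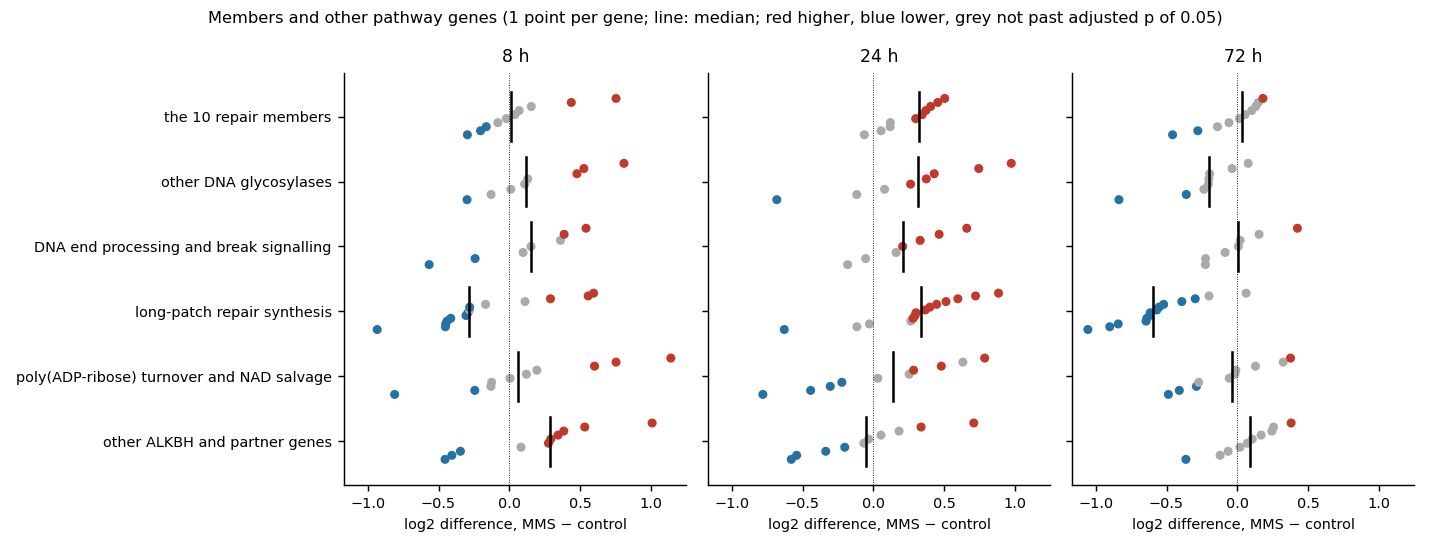
Log2 difference between MMS-treated and control cells at 8, 24 and 72 h for the 10 members and for 5 lists of other repair genes, 1 point per gene, with a line at each median (red called higher, blue called lower, grey neither). The 14 long-patch genes shift from a median of -0.29 at 8 h to 0.33 at 24 h and -0.59 at 72 h, beside 0.01, 0.32 and 0.03 for the 10 members.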

How the data were processed

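RNA of primary MEFs was hybridised to Affymetrix mouse arrays of 45101 probe sets, and the deposited values are log2 signals that the authors background-corrected, quantile-normalized and summarized per probe set with RMA, the tool named in the submitters' processing notes (version not given in the sources used here). Replicates were not pooled, and precision is limited by the number of arrays. The authors' own tests (permutation analysis of differential expression) were not used. Only the 34958 probe sets annotated with 1 gene symbol were used (932 had several and 9211 had none), with gene names from the platform annotation and positions and promoters from RefSeq (GRCm38.p6). A gene, represented by its brightest probe set, entered the test if any group had a mean at or above log2 4.40, the 40th percentile over the whole table.

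Tests were run with limma (version 3.58.1, R 4.3.3) in 1 model of 35 arrays and 9 groups with 26 residual degrees of freedom, and two-sided p-values were adjusted by Benjamini-Hochberg within each comparison over 14135 genes, or over 25798 probe sets in the check of the other probe sets. Calls required an adjusted p below 0.05. All members were named. Genes of each other list were named from up to 3 per direction and time, those called with the largest difference and no overlap between arms. Not all that met this rule are described above. Left out were Macrod1 (lower at 24 and 72 h), Nmnat2 (lower at 8 and 72 h), Alkbh7 (lower at 8 h) and Neil3 (lower at 72 h). Poll and Tdp2, both higher at 24 h, were also left out. The members and lists were chosen with earlier results of these data known. Alternatives changed the scaling, the filter, the probe set, the weights, the prior and the arrays used, and left out each array in turn. The scripts were tested on simulated data. Replicate numbers were not used as pairs in the model. Same-numbered arrays deviated together with correlations of -0.26 to 0.33, and in no comparison were all over 0.1. These values do not settle whether the numbers pair the samples.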

Additional observations from a re-analysis of the deposited data

Results flagged for a closer look

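In 80 groups of 4 arrays looked at (10 members, 8 groups), 1 array stood far from the other 3 in 5 cases, by Dixon's ratio of its gap to the group's range, at the 95% limit, which chance passes in about 1 of 20 groups. For Mpg these were control 0 h replicate 4 (highest, ratio 0.860), control 24 h replicate 1 (highest, 0.859) and control 72 h replicate 3 (highest, 0.830). For Xrcc1 they were control 1 h replicate 4 (lowest, 0.907) and control 72 h replicate 2 (lowest, 0.933). None of these 5 arrays is among those listed above with an excess of intestinal markers. However, control 1 h replicate 4 had an intestinal marker mean of 5.13, with 19 of 28 markers past the limit on low values. Replicates 1 and 2 of its group had 4.60 and 4.63, with 12 markers past the limit on each. The listed array of lowest mean, control 24 h replicate 4, had 5.25, with 20 past the limit.

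The MMS effect differed between neighbouring times, by limma's test of the difference, in 13 cases. From 1 to 8 h the difference was 0.352 for Mpg and 0.589 for Alkbh2. From 8 to 24 h it was 0.306 for Apex1, 0.380 for Polb, 0.416 for Lig3, 0.282 for Parp1, 0.258 for Parp2 and 0.301 for Alkbh3. From 24 to 72 h it was -0.356 for Mpg, -0.545 for Xrcc1, -0.398 for Parp1, -0.512 for Parp2 and -0.430 for Alkbh3. These values are those of the brightest probe set of each gene. For Mpg, Lig3 and Parp1 other probe sets differed, as given above.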

How the results depend on the processing

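Fitting the replicate number as a block changed none of the 110 calls (a rise of 2 and a fall of 3 at 8 h, a rise of 6 at 24 h). Whether the numbers pair the samples was not settled. Leaving out single arrays gave, for members higher and lower after MMS, 0 to 0 and 0 to 0 at 1 h, 2 to 2 and 2 to 3 at 8 h, 6 to 6 and 0 to 0 at 24 h, and 0 to 1 and 1 to 2 at 72 h. For control cells against 0 h it gave 0 to 1 and 0 to 0 at 1 h, 3 to 6 and 1 to 3 at 8 h, 0 to 2 and 0 to 0 at 24 h, and 0 to 3 and 1 to 2 at 72 h, and for members whose MMS effect differed 2 to 3, 5 to 7 and 5 to 5 over the 3 steps. The 1 member higher after MMS at 72 h became 0 with arrays centred on the median, quantile-normalized again, the mean of all probe sets, no 8 h arrays, or only the compared groups in the model. Members higher in control at 1 h became 1 with centring, array weights or second probe sets, which also gave 1 lower. At 8 h, higher members became 3 with the mean of probe sets, second probe sets or only the compared groups, and lower ones 1 with quantile normalization, second probe sets or only the compared groups. At 24 h, higher members became 3 with the mean of probe sets, 2 with the 60th percentile filter, array weights, an intensity trend or second probe sets, and 0 with quantile normalization, only the compared groups, or without the 6 arrays with intestinal markers, a choice made after the data were seen. At 72 h, they became 3 with the mean of probe sets, 2 with array weights or second probe sets, and 0 with centring, no filter, an intensity trend, only the compared groups, or without the 8 h arrays or those 6 arrays, while lower members became 4 with array weights and 1 with second probe sets. MMS effects that differed became 4 from 1 to 8 h with the mean of probe sets, and 3 in each later step with centring. The causes were not tested. Directions turned for other probe sets of a gene. For control cells these were Alkbh3 at 1 h (-0.50) and 8 h (-0.48, and -0.16 with the mean of probe sets), Lig3 at 8 h (0.041) and 72 h (0.050), Mpg at 8 h (0.074), Parp1 at 1 h (0.28) and 8 h (0.34 and 0.36) and Polb at 8 h (-0.079 and -0.28). For MMS they were Mpg at 24 h (-0.15; steps to 24 h -0.72 and to 72 h 0.29), Parp1 at 8 h (0.23, step to 24 h -0.37) and Polb at 72 h (-0.16). Centring moved the median of all genes at 8 h from 0.06 to 0.10.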
